A study of Mus musculus with 12 samples.

Results

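The genes described here are the mouse organic anion, organic cation and bile salt carriers and the ATP-binding cassette (ABC) transporters, taken as every symbol in the count files that begins with Slco, Slc10a, Slc22a, Slc47a or Abca to Abcg followed by a digit. There were 100 such genes among 24421 symbols. They comprised 15 Slco, 7 Slc10a, 26 Slc22a, 2 Slc47a, 16 Abca, 10 Abcb, 10 Abcc, 4 Abcd, 1 Abce, 3 Abcf and 6 Abcg genes. The genes were taken by symbol alone, but the families were chosen with earlier results of these data known. Of the 100, 68 passed the filter on low counts for the comparison of tumors with livers and 74 passed it for the comparisons of smaller groups. The other 26 did not exceed 0.63 CPM in any library (CPM, counts scaled to a library of 1000000 reads after normalization), and 9 of them had no read at all.

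The libraries are poly(A) RNA-seq of 6 hepatocellular tumors and 6 non-tumoral livers, each liver taken as that of the mouse of 1 tumor. All 6 mice were older than 18 months and on standard diet. In p21+/Tert mice 1 allele of Cdkn1a (p21) drives active Tert, the catalytic subunit of telomerase, and in p21+/TertCi mice it drives a Tert without catalytic activity, so its expression follows the p21 promoter in whichever cells use it, and all mice also keep their endogenous Tert. The p21+/Tert group holds 4 tumors (T-HCA992, T-HCC941, T-HCC663 and T-HCC662) and 4 livers, and the p21+/TertCi group holds 2 tumors (TCi-HCC981 and TCi-HCA984) and 2 livers. The mice were separate animals, and each liver is named by the tumor of its mouse. By the mutations the study lists, T-HCC662 and T-HCC663 carry mutated Ctnnb1 (β-catenin), T-HCC941 mutated Egfr and TCi-HCC981 mutated Hras, whereas T-HCA992 and TCi-HCA984 carry none of these. The last 4 are called the other tumors below. In the names HCC stands for carcinoma and HCA for adenoma, although the study's histology lists T-HCC663 as an adenoma. Both Ctnnb1-mutated tumors come from p21+/Tert mice, so that mutation and genotype overlap. Each library held 14571716 to 26170661 counted reads, and the 100 genes took 0.437% to 0.712% of them. Of the hepatocyte markers, Hnf4a was 476 to 873 CPM and Alb 5982 to 72143 CPM over the 12 libraries, while 3 of 5 cholangiocyte markers (Krt19, Krt7 and Epcam) were at or below 2.94 CPM. The other 2, Spp1 and Sox9, reached 1037 and 56.3 CPM, and the 5 summed to 50.9 to 134 CPM in livers, 17.8 and 35.5 CPM in Ctnnb1-mutated tumors and 60.8 to 1064 CPM in the other tumors, with the highest sum in T-HCA992. The liver of TCi-HCC981 had the highest sum of 5 macrophage markers (881 CPM against 93.4 to 226 in the other 5 livers). All 12 libraries came from males by their RNA, with the Y-linked Ddx3y at 36.3 to 88.5 CPM and Xist at or below 1.46 CPM.

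A hepatocyte takes bile salts, drugs and hormones from blood through carriers in its sinusoidal membrane and secretes them across its canalicular membrane by ABC pumps that spend ATP. Slc10a1 (NTCP) couples bile salt uptake to sodium, the Slco carriers (OATP) take up organic anions without sodium, and the Slc22a carriers move organic cations, organic anions or carnitine. Abcb11 (BSEP) exports bile salts into bile, Abcb4 exports phospholipid, Abcc2 exports conjugates, and Abcg5 with Abcg8 exports sterols. Abcc3 and Abcc4 return bile salts and conjugates to blood. In healthy liver β-catenin signalling marks the hepatocytes around the central vein, and many carriers differ in level between that zone and the portal zone.

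Promoter windows are given for 5 genes that carry the contrasts described below. Slco1b2 and Slc22a3 were higher in both Ctnnb1-mutated tumors than in each of the other tumors. Slc10a1 and Slco1a1 were lower in every tumor than in every liver, and Abcc4 was higher in every tumor than in every liver. Each window runs from 250 bases before the RefSeq start site to 50 bases after it (GRCm38.p6), 5′ to 3′ on the strand of the gene. Capitals mark the letters of a searched motif, read on either strand.
Slco1b2, chr6:141629268-141629567 (plus strand): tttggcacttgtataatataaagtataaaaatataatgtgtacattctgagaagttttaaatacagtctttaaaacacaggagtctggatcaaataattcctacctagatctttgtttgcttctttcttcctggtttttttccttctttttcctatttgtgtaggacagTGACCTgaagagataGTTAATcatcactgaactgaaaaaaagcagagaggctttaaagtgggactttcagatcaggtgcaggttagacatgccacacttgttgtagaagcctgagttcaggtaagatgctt
Slc22a3, chr17:12507655-12507954 (minus strand): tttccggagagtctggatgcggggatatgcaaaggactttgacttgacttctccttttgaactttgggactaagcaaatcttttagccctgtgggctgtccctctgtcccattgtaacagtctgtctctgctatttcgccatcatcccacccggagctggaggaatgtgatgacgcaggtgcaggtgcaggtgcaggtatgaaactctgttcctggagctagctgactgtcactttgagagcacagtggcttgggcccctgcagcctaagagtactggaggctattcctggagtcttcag
Slc10a1, chr12:80968656-80968955 (minus strand): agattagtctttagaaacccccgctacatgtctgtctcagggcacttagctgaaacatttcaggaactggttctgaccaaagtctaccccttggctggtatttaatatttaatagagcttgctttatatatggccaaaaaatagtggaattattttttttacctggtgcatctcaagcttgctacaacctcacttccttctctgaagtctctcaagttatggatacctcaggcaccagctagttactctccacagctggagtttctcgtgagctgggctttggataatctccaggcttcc
Slco1a1, chr6:141946913-141947212 (minus strand): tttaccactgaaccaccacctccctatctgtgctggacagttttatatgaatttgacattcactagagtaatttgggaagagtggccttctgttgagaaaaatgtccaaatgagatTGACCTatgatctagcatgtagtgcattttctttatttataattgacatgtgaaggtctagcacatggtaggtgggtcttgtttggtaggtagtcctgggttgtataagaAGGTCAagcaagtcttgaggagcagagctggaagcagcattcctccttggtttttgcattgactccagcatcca
Abcc4, chr14:118706170-118706469 (minus strand): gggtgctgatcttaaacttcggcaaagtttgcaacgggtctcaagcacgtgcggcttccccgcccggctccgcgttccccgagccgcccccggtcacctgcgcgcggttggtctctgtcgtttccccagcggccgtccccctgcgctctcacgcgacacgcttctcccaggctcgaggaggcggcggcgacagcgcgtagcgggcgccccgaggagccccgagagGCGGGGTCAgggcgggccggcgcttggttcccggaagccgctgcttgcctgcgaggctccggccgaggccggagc

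The first motifs searched were CTTTGAT and the related CTTTGAA, both forms of the TCF/LEF site that partners of β-catenin bind. A further motif was TGACNNNGC, the core of the antioxidant response element. The HNF1 element was searched by its part GTTAAT. The nuclear receptor half-site was searched as AGGTCA. All were read on both strands. They occur in 3.73%, 5.14%, 12.4%, 7.1% and 16.3% of 32851 mouse promoter windows of this length. A window with its start site within 1000 bases of the GENCODE gene start was found for 73 of the 100 genes, and these motifs were in 0, 4, 9, 4 and 8 of them. Of the 8 genes with a window that were higher in Ctnnb1-mutated than in other tumors, none held a TCF/LEF form or the antioxidant response core, 1 held the HNF1 part (Slco1b2) and 2 held the half-site (Slco1b2 and Abcb6). In the windows shown, Slco1b2 holds the HNF1 part and the half-site, Slco1a1 holds the half-site on each strand, Abcc4 holds the antioxidant response core on its minus strand, and Slc22a3 and Slc10a1 hold none. These are matches of letters only.

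Levels can be compared between genes after division by exon length. In liver the highest mean levels per kb were those of Slco1b2 (204 ± 33.1 CPM per kb, SD, n = 6) and Slc10a1 (201 ± 39.2), which did not differ beyond their spread. Abcb11 had 108 ± 30.8 CPM per kb. Together they cover uptake of organic anions and bile salts and export of bile salts. In Ctnnb1-mutated tumors Slco1b2 led with 288 CPM per kb, while Slc10a1 had rank 18 with 17.9 CPM per kb. In the other tumors Abcg5 led with 72.1 CPM per kb, Slc10a1 had rank 2 with 60.1, and Slco1b2 had rank 10 with 39.0.

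**Figure D1:**
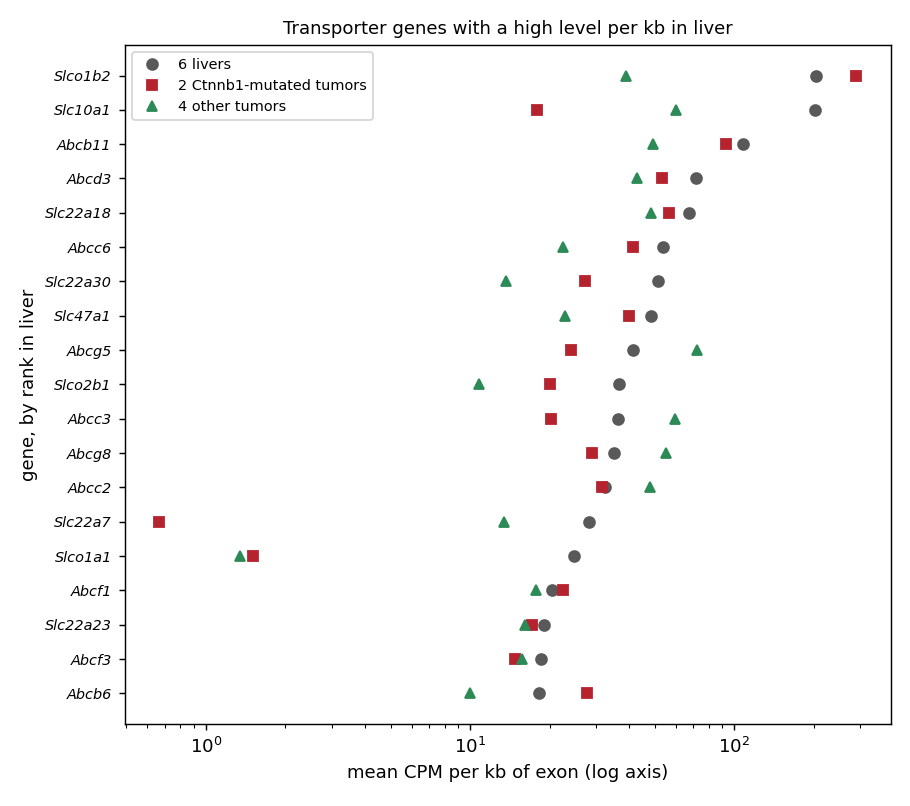
Mean level of 19 transporter genes with a high level in liver, as CPM per kb of exon on a log axis, for 6 livers (circles), 2 Ctnnb1-mutated tumors (squares) and 4 other tumors (triangles). Slco1b2 lies right of liver in Ctnnb1-mutated tumors and left of it in the other tumors, and Slc10a1 and Slco1a1 lie left of liver in both.

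The first question was which transporters differ between tumor and non-tumoral liver whatever the driver. With edgeR's quasi-likelihood test, 6 of the 68 tested genes were higher in tumors and 5 were lower at an adjusted p under 0.05. Over all 13822 genes tested, 6.77% were higher and 3.91% lower, so the shares among transporters (16.2% in all) stand beside 10.7% in all. The median log2 fold change was 0.00 for the transporters and 0.01 for all genes. In 6 of 6 mice the tumor was above its own liver for 6 of the 68 transporters (8.82%, against 11% of all genes) and below it for 13 (19.1%, against 11.5%). In the fit with the mouse as a block 14 transporters were called, 5 higher and 9 lower, beside 15.9% of all genes. Of these, 5 were not called without the block. Abcg1 was higher (edgeR adjusted p = 0.347 without the block and 0.00825 with it), and Slc22a28 (0.104 and 0.0167), Abcd3 (0.185 and 0.0249), Abcb11 and Slco2b1 were lower.

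Among the carriers of bile salt and organic anion uptake, the transcripts of Slc10a1 and Slco1a1 passed the test and those of Slco2b1 passed it with the mouse as a block, and all 3 were lower in every tumor than in every liver. Slc10a1 was between 337 and 545 CPM in the 6 livers, with a median of 436. It was 23.5 and 55.4 CPM in the Ctnnb1-mutated tumors, 88.3 in the Egfr-mutated, 60.7 in the Hras-mutated and 152 and 227 in the driver-negative tumors. Every tumor was below every liver, and the order among tumors put both Ctnnb1-mutated ones lowest. The log2 fold change was -2.13 ± 0.45 (SE, edgeR adjusted p = 0.0100).

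Slco1a1, an organic anion carrier known for its male-biased level in mouse liver, was 334, 241, 116 and 63.7 CPM in the p21+/Tert livers, in the order of T-HCC662, T-HCC663, the Egfr-mutated T-HCC941 and T-HCA992. It was 16.6 and 10.3 CPM in the p21+/TertCi livers of TCi-HCC981 and TCi-HCA984. It was 2.83 to 9.89 CPM in the 6 tumors. The groups did not overlap, but the liver of TCi-HCA984 lay close to the highest tumor, and the livers spanned a far wider range than the tumors. The log2 fold change was -4.15 ± 0.77 (edgeR adjusted p = 0.00532).

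Slco2b1, an organic anion carrier of broad substrate range, was 180 to 251 CPM in the livers (median 219) and 15.1 to 124 CPM in the tumors, again without overlap. Its edgeR adjusted p was 0.0514, or 0.0344 once the mouse was a block, and without the block the log2 fold change was -1.41 ± 0.43. Of all tested genes, 2.18% were lower and 2.93% were higher in tumors without overlap between the groups. Among transporters, Slc10a1, Slco1a1 and Slco2b1 were lower in this way and Abcc4 and Abcb1a were higher. Because the tissue was taken in bulk, fewer cells of a type and less RNA per cell cannot be told apart in these values.

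Slc22a30, an orphan anion carrier of liver and kidney, fell from 92.4 to 279 CPM in livers to 27.5 to 94.2 CPM in tumors (log2 fold change -1.51 ± 0.34, edgeR adjusted p = 0.0142). Its transcript is nearly identical over part of its length to that of Slc22a28, so reads may have been split between them. Abcc6, whose product releases ATP from hepatocytes, was 215 to 416 CPM in livers and 110 to 247 CPM in tumors (log2 fold change -0.92 ± 0.24, edgeR adjusted p = 0.0308). Abcb10, an exporter of the mitochondrial inner membrane linked to heme synthesis, was 27.4 to 57.8 CPM in livers and 13.9 to 40.8 CPM in tumors (log2 fold change -0.83 ± 0.24, edgeR adjusted p = 0.0438). Both overlapped between tissues, although each was lower than in the own liver in 6 of 6 mice.

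The genes that rose were all ABC transporters, and each was at or below 29.8 CPM in every liver. Abcc4 (MRP4), which exports bile salts and cyclic nucleotides, was 0.91 to 8.23 CPM in livers with a median of 3.27. It was 63.9 and 38.2 CPM in the Ctnnb1-mutated tumors, 27.8 in the Egfr-mutated, 120 in the Hras-mutated and 13.4 and 29.2 in the driver-negative tumors. The log2 fold change was 3.71 ± 0.60 (edgeR adjusted p = 0.00274), and no tumor overlapped a liver.

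Abcb1a (P-glycoprotein), which exports lipophilic drugs, was 2.12 to 6.13 CPM in livers with a median of 3.53. It was 30.5 and 12.6 CPM in the Ctnnb1-mutated, 53.4 in the Egfr-mutated, 12.6 in the Hras-mutated and 18.4 and 17.2 in the driver-negative tumors. The tumors again lay above all livers (log2 fold change 2.59 ± 0.40, edgeR adjusted p = 0.00219). Abcb1a and its neighbour Abcb1b are nearly identical in stretches, and how reads with several alignments were counted is not given in the sources used here.

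Abcc5 (MRP5), an exporter of cyclic nucleotides, was 5.31 to 14.7 CPM in livers and 13.8 to 56.4 CPM in tumors (log2 fold change 2.04 ± 0.37, edgeR adjusted p = 0.00450). Only the lowest tumor, T-HCC662, fell within the range of the livers. Abca5, a lipid transporter of endosomes and lysosomes, was 3.02 to 9.74 CPM in livers and 8.83 to 17.6 CPM in tumors (log2 fold change 1.35 ± 0.29, edgeR adjusted p = 0.0110), with the Hras-mutated tumor inside the range of the livers. Both were higher than the own liver in 6 of 6 mice.

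The calls of Abcc12 and Abcd2 rested on part of the tumors. Abcc12 was 0.0485 to 0.91 CPM in livers, 29.9 CPM in the Egfr-mutated and 43.8 CPM in the Hras-mutated tumor, and 0.36 to 2.19 CPM in the other 4. Its edgeR adjusted p was 0.0249 and became 0.0563 with the mouse as a block. Abcd2, a peroxisomal importer of fatty acyl-CoA, was 1.82 to 29.8 CPM in livers, 91.8 to 220 CPM in the 4 other tumors, and 45.7 and 6.27 CPM in the Ctnnb1-mutated ones. Its edgeR adjusted p was 0.0341 and became 0.0825 with the block. When each of the 12 libraries was left out in turn, Abcb10 was called in 2 fits, Abcd2 in 4, Abcc6 in 5 and Abcc12 in 7, whereas the other 7 genes were called in all 12.

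**Figure D2:**
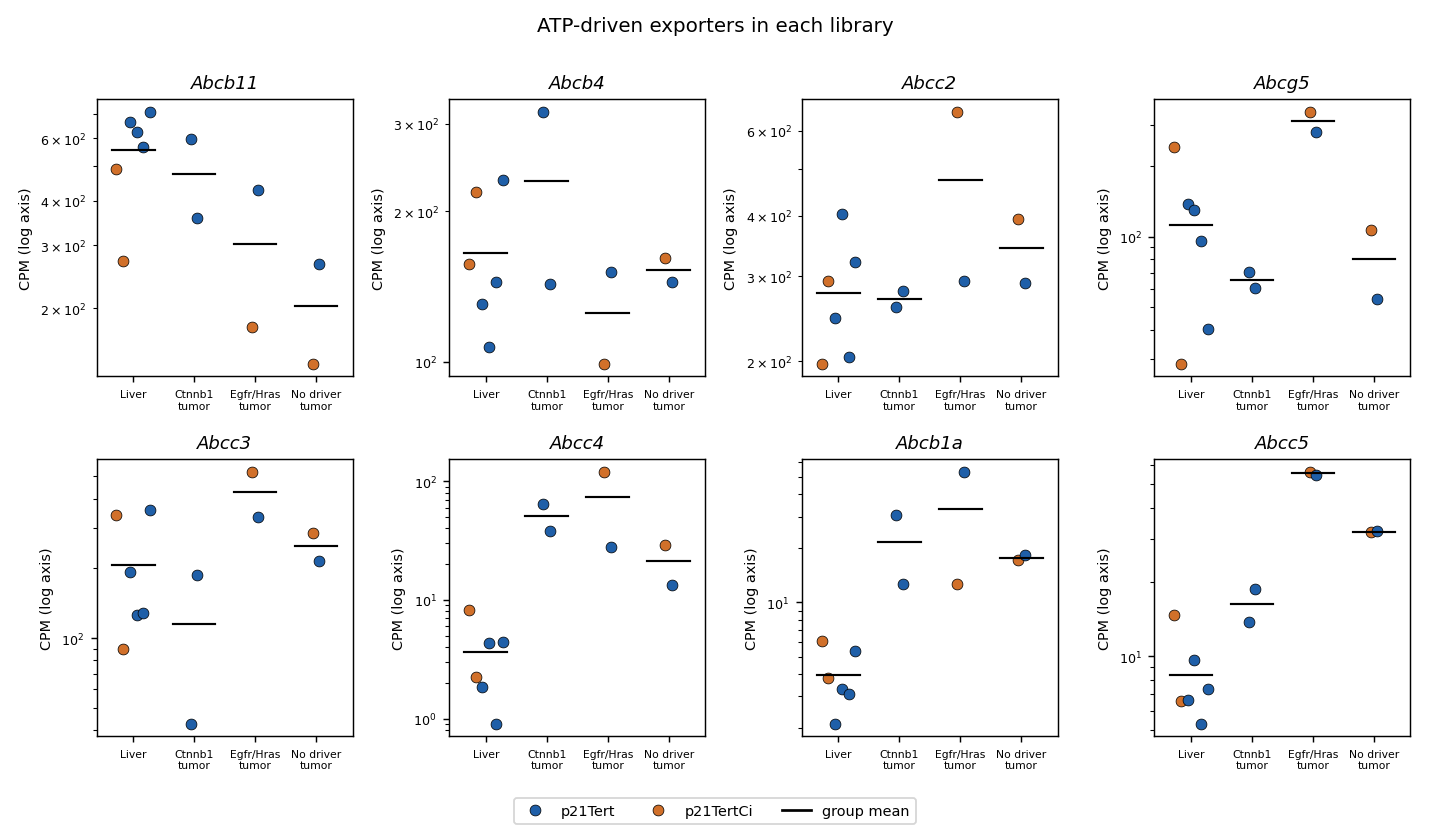
CPM on a log axis of 8 exporters in each library, by tissue and driver class, with p21+/Tert in blue, p21+/TertCi in orange and a line at the group mean. Abcc4 and Abcb1a are above all livers in every tumor, whereas Abcb4, Abcc2, Abcg5 and Abcc3 overlap between livers and tumors.

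Of the 8 transporters listed for canalicular export, Abcb1a alone passed the test against livers, and the median log2 fold change of the 8 was 0.28. Abcb11 was 271 to 710 CPM in livers and 139 to 597 CPM in tumors, below the own liver in 6 of 6 mice, with a log2 fold change of -0.77 ± 0.35 and an edgeR adjusted p of 0.180 (0.0345 with the mouse as a block). Abcb4 (165 ± 49.8 CPM in livers, 169 ± 75.3 in tumors, SD, n = 6 each), Abcc2 (277 ± 78.1 and 362 ± 152) and Abcg2 (40.1 ± 10.2 and 45.3 ± 16.5) overlapped widely. The 95% interval of the log2 fold change ran from -0.57 to 0.63 for Abcb4, from -0.20 to 0.97 for Abcc2 and from -0.38 to 0.72 for Abcg2. Slc47a1, which exports organic cations, was 98.1 to 256 CPM in livers and 62.3 to 144 CPM in tumors (edgeR adjusted p = 0.0756).

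Abcg5 and Abcg8, neighbours read from opposite strands on chromosome 17 whose products form 1 sterol pump, varied widely in both tissues. Abcg5 was 28.6 to 241 CPM in livers and 54.2 to 341 CPM in tumors, and Abcg8 was 34.7 to 220 and 63.0 to 381 CPM. The 2 tumors with mutated Egfr or Hras had the highest values of both genes among the 12 libraries. Neither passed the test against livers (edgeR adjusted p = 0.683 and 0.673). The annotated genes overlap (chr17:84658234-84683011 for Abcg5 and chr17:84676302-84700333 for Abcg8), and whether counting used strand is not given in the sources used here. Abcc3, a basolateral exporter, was 90.0 to 358 CPM in livers and 42.7 to 523 CPM in tumors (edgeR adjusted p = 0.696).

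The second question was how transporters differ between driver classes. Between Ctnnb1-mutated and other tumors, edgeR's quasi-likelihood test called 19 of 74 transporters, 11 higher and 8 lower in Ctnnb1-mutated tumors. Over the 15182 genes tested 6.76% were higher and 5.72% lower, and the median log2 difference was 0.18 for transporters and 0.00 for all genes. Of the 8 listed sinusoidal uptake carriers, 4 were higher and 2 lower. With the mouse as a block the count was 8 transporters (4 higher and 4 lower) beside 2.9% of all genes, and 7 of those 8 are among the 19. The eighth was Slc22a5 (edgeR adjusted p = 0.156 without the block and 0.0483 with it). Here the blocked fit compares tumor minus own liver between the classes, whereas the main fit compares the tumors themselves. A call lost or gained with the block therefore concerns a different quantity. In the main fit the count was 6 without T-HCC662 and 10 without TCi-HCC981. Slco2a1, Slc22a3, Slco1b2 and Abcb6 were called in all 12 fits that each left out 1 library.

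Slco1b2, the main hepatic OATP of the mouse, was 721 to 1178 CPM in livers with a median of 1017. It was 1691 and 1146 CPM in the Ctnnb1-mutated tumors, 78.0 in the Egfr-mutated, 22.8 in the Hras-mutated and 119 and 550 in the driver-negative tumors. The 4 other tumors were below every liver, whereas 1 Ctnnb1-mutated tumor was above every liver and the other within their range. The difference between the classes was 3.44 ± 0.55 on the log2 scale (edgeR adjusted p = 0.00383). Of the 5 hepatocyte markers none was higher, and Alb and Cps1 were lower in Ctnnb1-mutated tumors, beside 6.76% and 5.72% of all genes. The 5 summed to 15020 and 31370 CPM there, against 60740 to 91860 CPM in the others and 24760 to 48090 CPM in livers. These markers did not move together. On the log2(CPM + 1) scale Alb was 1.094 to 2.918 above the own liver in the 4 other tumors. Ttr was below the own liver in 6 of 6 mice. The sum, in which Alb weighs heavily, is therefore no measure of hepatocyte share. The part of hepatocyte content in the Slco1b2 difference was not tested.

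Slc22a3 (OCT3), an organic cation carrier (chr17:12418960-12507704), was 8.83 to 24.4 CPM in livers with a median of 11.7. It was 164 and 85.5 CPM in the Ctnnb1-mutated tumors, 1.89 in the Egfr-mutated, 0.411 in the Hras-mutated and 0.860 and 7.16 in the driver-negative tumors. All Ctnnb1-mutated tumors were above and all other tumors below the range of the livers, and the difference between classes was 5.86 ± 0.73 on the log2 scale (edgeR adjusted p = 0.000843).

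Slco1a4, another organic anion carrier, was 17.1 to 93.9 CPM in livers with a median of 77.3. It was 115 and 70.5 CPM in the Ctnnb1-mutated tumors, 8.75 in the Egfr-mutated, 0.308 in the Hras-mutated and 7.99 and 8.75 in the driver-negative tumors. The difference was 3.91 ± 0.80 on the log2 scale (edgeR adjusted p = 0.0119, or 0.150 in the blocked fit). Slco2b1 was lower than liver in both classes and less so in Ctnnb1-mutated tumors (124 and 114 CPM) than in T-HCC941 (29.5 CPM), TCi-HCC981 (15.1 CPM) and T-HCA992 (88.6 CPM), but TCi-HCA984 had 124 CPM. Its adjusted p between the classes was 0.0123 in edgeR and 0.0781 with the block.

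Slco1c1, a carrier of thyroxine best known from brain vessels, was called at the edge of detection. It had 36 reads in T-HCC662, 14 in T-HCC663 and none in the 4 other tumors. Against a floor of 3 counts over those 4 libraries it was at least 30.9-fold higher in Ctnnb1-mutated tumors, and its call was lost with the block (edgeR adjusted p = 0.194). Slco1c1, Slco1b2 and Slco1a4 are neighbours on chromosome 6 between positions 141524368 and 141856199, followed by Slco1a1. Slco1a1 did not share the difference between classes, with 7.39 and 8.46 CPM in Ctnnb1-mutated and 2.83 to 9.89 CPM in other tumors (log2 difference 0.18, 95% interval -2.20 to 2.55, edgeR adjusted p = 0.933).

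**Figure D3:**
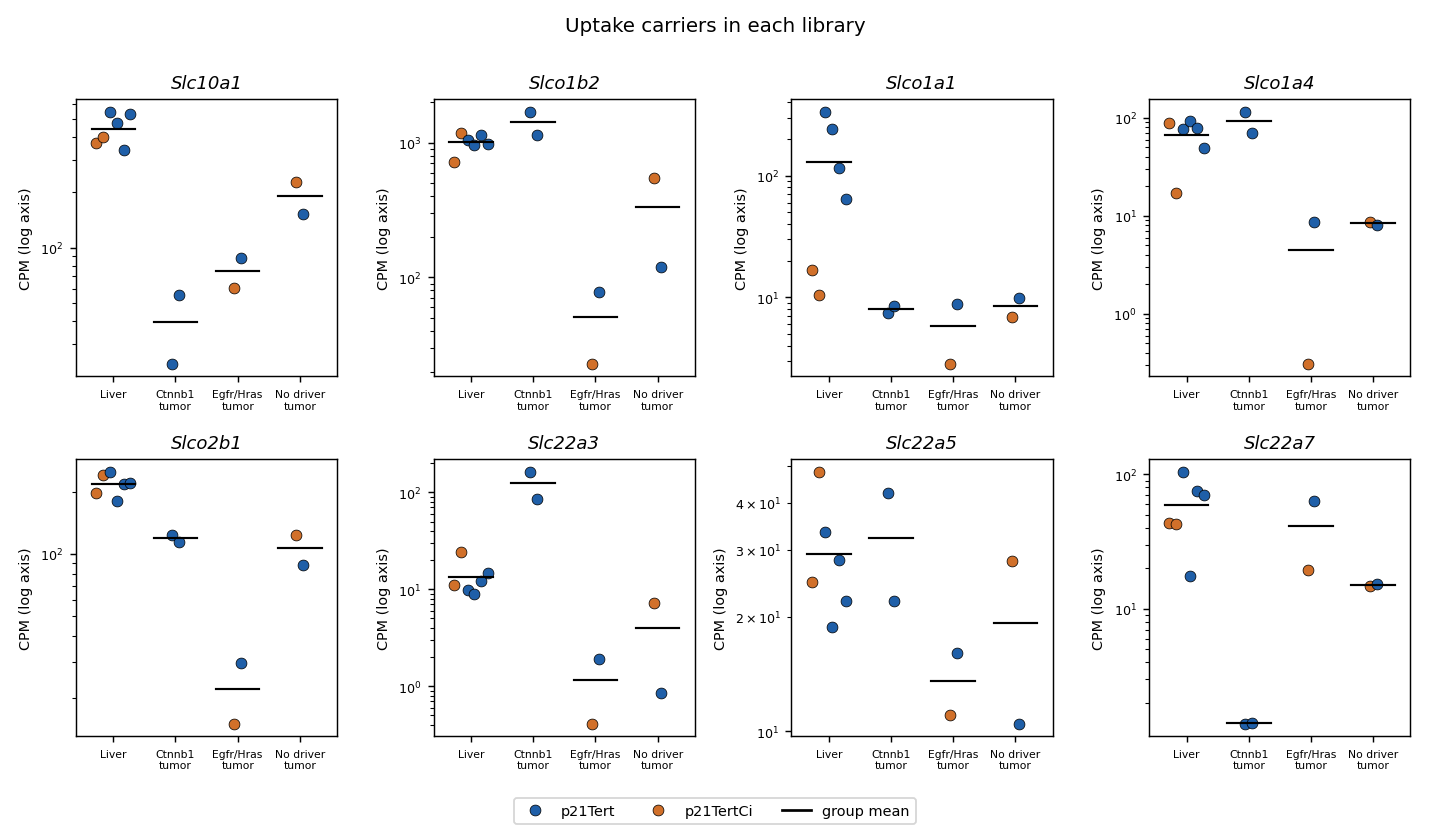
CPM on a log axis of 8 uptake carriers in each library, by tissue and driver class, with p21+/Tert in blue, p21+/TertCi in orange and a line at the group mean. Slco1b2 and Slc22a3 are higher in Ctnnb1-mutated than in other tumors, Slc22a7 is lower, and Slc10a1 is below all livers in every tumor.

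Slc22a7 (OAT2), a carrier of organic anions and nucleotides, had the opposite pattern. It was 17.5 to 105 CPM in livers with a median of 57 CPM, and 1.40 CPM in both Ctnnb1-mutated tumors. The other tumors had 63.3 CPM (Egfr), 19.4 (Hras), 15.4 and 14.7 CPM (driver-negative), which lay within or just below the range of the livers. The difference between classes was -4.16 ± 0.75 on the log2 scale (edgeR adjusted p = 0.00695). Slc10a1 was also lower in the Ctnnb1-mutated than in the other tumors (log2 difference -1.60 ± 0.38, edgeR adjusted p = 0.0219, and 0.0925 with the block).

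Slco2a1, a prostaglandin carrier, was 17.5 and 21.4 CPM in the Ctnnb1-mutated tumors, 81.2 in the Egfr-mutated, 80.0 in the Hras-mutated, 183 and 112 in the driver-negative tumors, and 55.3 to 82.0 CPM in livers. It had the smallest p of all transporters in this comparison (log2 difference -2.50 ± 0.25, edgeR adjusted p = 0.000268). Abcc9, a regulatory subunit of ATP-sensitive potassium channels, was 2.30 and 7.36 CPM in the Ctnnb1-mutated tumors against 18.1 to 76.3 CPM in the others (log2 difference -3.01 ± 0.69, edgeR adjusted p = 0.0185). Abcc9 is known from mural cells and Slco2a1 from endothelium, and some but not all markers of such cells were also lower. Of 5 endothelial markers, 0 were higher and 2 lower in Ctnnb1-mutated tumors, beside 6.76% and 5.72% of all genes. Their sum was 34.97 and 85.68 CPM in Ctnnb1-mutated tumors, 86.7 to 196 CPM in other tumors and 47.2 to 141 CPM in livers. Of 5 stellate or fibroblast markers 2 were lower, with sums of 13.1 and 25.2, 59.1 to 122 and 12.3 to 58.3 CPM. No marker of either list was at 0 in any library, and the part of these cells in the result was not tested.

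Abca8a, a lipid transporter, was 13.4 and 18.6 CPM in Ctnnb1-mutated tumors and 58.5 to 109 CPM in the others (log2 difference -2.20 ± 0.56, edgeR adjusted p = 0.0281). Abca1, which loads cholesterol onto apolipoprotein A-I, was 81.6 and 132 CPM against 229 to 272 CPM (log2 difference -1.23 ± 0.30, edgeR adjusted p = 0.0229, and 0.115 with the block). Livers had 118 to 201 CPM of Abca1, below all 4 other tumors and above or around the Ctnnb1-mutated ones. Abcg1, its partner in sterol export, was 10.4 and 21.6 CPM in Ctnnb1-mutated and 11.1 to 62.6 CPM in other tumors (edgeR adjusted p = 0.755), and both its highest tumor and its highest liver came from the mouse of TCi-HCC981, where the macrophage markers summed to 577 CPM in the tumor and 881 CPM in the liver. The part of macrophages in those 2 values was not tested.

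Among intracellular ABC transporters, Abcb6, a mitochondrial porphyrin transporter, was 156 and 137 CPM in Ctnnb1-mutated tumors, 42.7 to 65.5 CPM in others and 75.0 to 113 CPM in livers. The classes lay on opposite sides of the livers (log2 difference 1.45 ± 0.23, edgeR adjusted p = 0.00328, and 0.0688 with the block). Abcd4, linked to vitamin B12 transport in lysosomes, was 18.0 and 25.9 CPM against 9.30 to 13.0 CPM (log2 difference 0.91 ± 0.21, edgeR adjusted p = 0.0191, and 0.163 with the block). Abcc5 and Abcc12, described above, were lower in Ctnnb1-mutated than in other tumors (log2 differences -1.38 and -3.29, edgeR adjusted p = 0.0317 and 0.0192, and 0.119 and 0.0674 with the block). The calls of Slc22a4 (log2 difference 2.33), Abcb1b (1.92) and Abcc6 (0.88) had edgeR adjusted p of 0.0261, 0.0340 and 0.0408 and were also lost with the block.

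**Figure D4:**
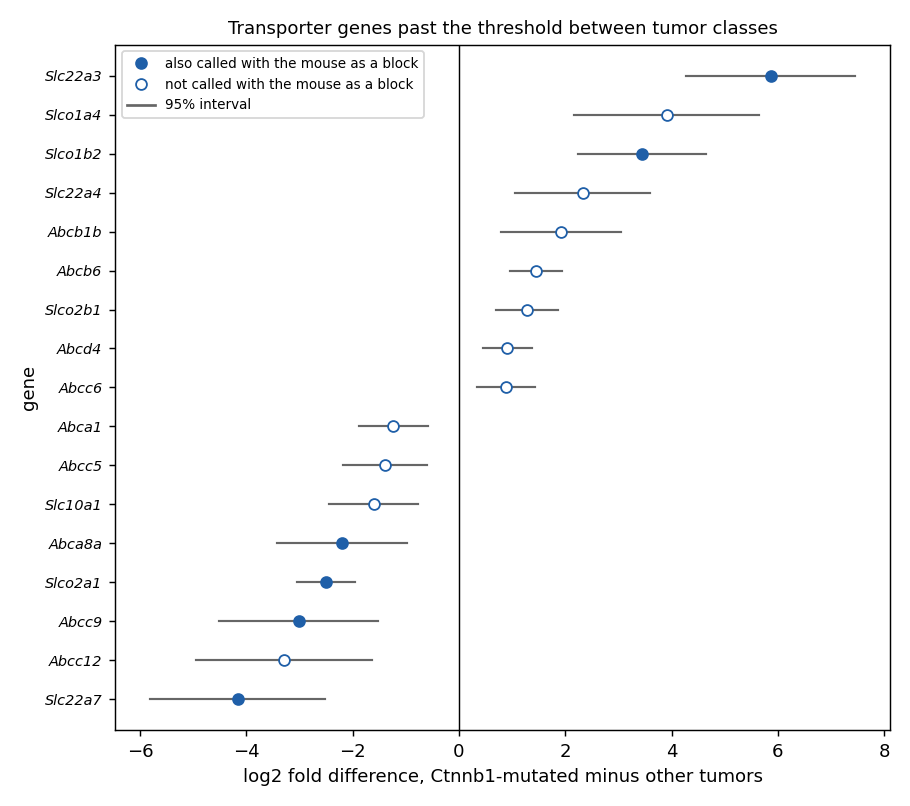
Log2 difference between 2 Ctnnb1-mutated and 4 other tumors for 17 of the transporter genes called (Slco1c1, without reads in the other tumors, is among those left out), with 95% intervals. Points to the right are higher in Ctnnb1-mutated tumors, and the 6 filled points are also called with the mouse as a block. The blocked fit compares tumor minus own liver between the classes.

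Each class was also set against the 6 livers, which both comparisons share. In Ctnnb1-mutated tumors 4 transporters were higher and 3 lower than in livers, beside 5% and 3.2% of all genes. The higher ones were Abcc4 (log2 fold change 3.76), Slc22a3 (3.17), Abcb1a (2.41) and Abcb1b (2.04), with edgeR adjusted p of 0.00471, 0.00770, 0.0111 and 0.0216. The lower ones were Slc22a7 (-5.42), Slc10a1 (-3.51) and Slco2a1 (-1.82), with edgeR adjusted p of 0.00215, 0.000683 and 0.00104. With the mouse as a block Abcb1a and Abcb1b lost the call (edgeR adjusted p = 0.0759 and 0.129), and the count was 9 beside 5.61% of all genes. Slco1a1, Abca5, Slc22a30 and Abcc9 gained it (edgeR adjusted p = 0.00755, 0.0304, 0.0376 and 0.0476 with the block).

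In the 4 other tumors 8 transporters were higher and 18 lower than in livers, beside 11.3% and 11.5% of all genes, and with the block 33 were called beside 20.7%. Slc47a1 lost its call with the block (edgeR adjusted p = 0.0109 and 0.0650), and 8 genes gained one, among them Slc22a5, Abcg1, Abca8a, Abcg5 and Slc22a7 (edgeR adjusted p = 0.00585, 0.0221, 0.0345, 0.0357 and 0.0420 with the block). Of the 8 listed uptake carriers 6 fell, and their median was -2.05 on the log2 scale. Those that passed included Slco1b2 (-2.97), Slco1a4 (-3.47), Slco1a1 (-4.24), Slco2b1 (-2.18) and Slc10a1 (-1.91), while Slc22a7 and the carnitine carrier Slc22a5 (-0.88) did not without the block. The same list in Ctnnb1-mutated tumors had a median of -0.39, with 2 of the 8 lower. Among 4 peroxisomal transporters Abcd2 rose (3.08) and the other 3 fell, and among 4 mitochondrial ones Abcb6 (-0.88) and Abcb10 (-1.13) fell. Of 4 Abce and Abcf genes, which act on ribosomes and are not transporters, none was called in either class. Abcb11 fell in the other tumors (-1.18, edgeR adjusted p = 0.0315) and was -0.24 in Ctnnb1-mutated tumors (95% interval -1.17 to 0.70), but the difference between the classes did not pass (edgeR adjusted p = 0.170).

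**Figure D5:**
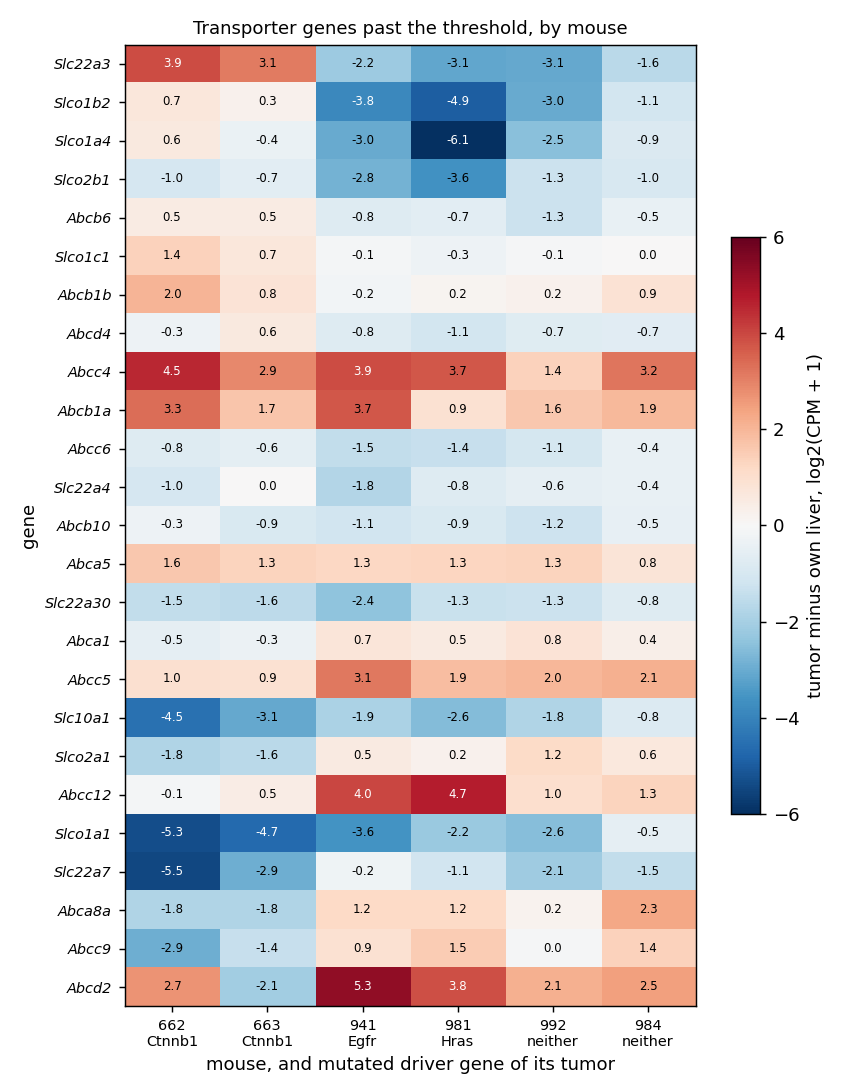
Tumor minus own liver for each mouse, as the difference of log2(CPM + 1), for 25 transporter genes called between tumors and livers or between driver classes. Abcc4, Abcb1a, Abcc5 and Abca5 are above 0 and Slc10a1, Slco1a1 and Slc22a30 below 0 in 6 of 6 mice, while Slc22a3 and Slco1b2 are above 0 in both mice with Ctnnb1-mutated tumors and below 0 in the other 4.

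Egfr- or Hras-mutated and driver-negative tumors differed in no transporter in edgeR (0% of all genes, and 12 transporters of 74 at an unadjusted p under 0.05, beside 1331 of all genes). DESeq2 called 3 transporters and 105 genes in all. These 3 were Slco2b1 (29.5 and 15.1 against 88.6 and 124 CPM), Slco1b2 (78.0 and 22.8 against 119 and 550 CPM) and Abcc12 (29.9 and 43.8 against 2.19 and 1.65 CPM), with DESeq2 adjusted p of 2.31e-08, 0.00531 and 7.55e-06. The values of each pair of tumors did not overlap for these genes, with 2 tumors on each side. By the study's histology both driver-negative tumors are adenomas and the 2 mutated ones carcinomas. Driver and histology cannot be told apart in this comparison.

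The third question was whether the genotype, active or inactive Tert, mattered. In p21+/Tert mice 4 transporters were higher and 3 lower in tumors than in livers, beside 4.2% and 2.3% of all genes, and with the block 10 were called beside 8.61%. The 3 gained were Abcb10, Abcg1 and Slc22a28 (edgeR adjusted p = 0.0322, 0.0347 and 0.0374 with the block). They were Abcb1a (log2 fold change 3.02), Abcc4 (3.61), Abcc5 (2.02) and Abca5 (1.51), and Slco1a1 (-4.47), Slc10a1 (-2.58) and Slc22a30 (-1.64). In the 2 p21+/TertCi mice the same genes had fold changes of 1.57, 3.81, 2.04, 1.004, -1.49, -1.43 and -1.09 in that order, and no transporter passed (0% of all genes, and 12 transporters and 1618 genes at an unadjusted p under 0.05). DESeq2 called Abcc4 there among 362 genes. The difference between the genotypes, tested as an interaction, was called for no gene (0%), with 2 transporters and 556 genes at an unadjusted p under 0.05 and 6 genes, none of them a transporter, in DESeq2.

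Among transporters, Slco1a1 had the smallest p for a difference between the genotypes, both as an interaction and between livers. Its fold change in tumors against livers differed by -2.99 ± 0.82 on the log2 scale between p21+/Tert and p21+/TertCi mice (unadjusted p = 0.00368 in edgeR, adjusted p = 0.9999). The 4 p21+/Tert livers (63.7 to 334 CPM) were all above the 2 p21+/TertCi livers (10.3 and 16.6 CPM). That liver comparison gave a log2 difference of 3.796 ± 0.68, with an adjusted p of 0.288 in edgeR and 1.62e-07 in DESeq2, where it was the 1 transporter called among 42 genes. edgeR called no gene between the livers (0%), with 2 transporters and 756 genes at an unadjusted p under 0.05. The p21+/Tert livers had 14571716 to 18654385 counted reads and the p21+/TertCi livers 22094500 and 23932529, and the sequencing runs are not known. The part of depth or run in the liver difference was not tested. Among tumors without a Ctnnb1 mutation, 2 p21+/Tert and 2 p21+/TertCi, no transporter was called beside 0.00659% of all genes, with 7 transporters and 1217 genes at an unadjusted p under 0.05 in edgeR, and DESeq2 called no transporter among 165 genes.

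Genes that make, conjugate or sense the bile acids these carriers move were read from lists. Of 12 bile acid synthesis genes, 6 were lower in tumors than in livers and none higher, beside 3.91% and 6.77% of all genes. The list's median was -1.002 on the log2 scale. The 6 were Cyp7b1 (-3.42) and Cyp8b1 (-3.09), hydroxylases of the synthesis pathways, Hsd3b7 (-0.97), Scp2 (-1.15), and the conjugating enzymes Slc27a5 (-1.60) and Baat (-1.41). Between the classes, Cyp27a1, the mitochondrial sterol hydroxylase, was 648 and 544 CPM in Ctnnb1-mutated and 120 to 190 CPM in other tumors (log2 difference 1.99 ± 0.37, edgeR adjusted p = 0.00800, and 0.126 with the block). Amacr, a racemase of bile acid intermediates, was 330 and 240 against 68.1 to 94.7 CPM (1.76 ± 0.24, edgeR adjusted p = 0.00146). Cyp8b1 was lower, with 8.61 and 3.11 against 26.2 to 85.6 CPM (-3.14 ± 0.88, edgeR adjusted p = 0.0394).

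Of 12 regulators, Nr1h4 (FXR), the bile acid receptor, was lower in tumors, with 34.6 to 132 CPM against 124 to 231 CPM in livers (log2 fold change -1.10 ± 0.30, edgeR adjusted p = 0.0328). Between the classes Nr1i2 (PXR) was higher and Nr5a2 lower in Ctnnb1-mutated tumors (edgeR adjusted p = 0.0221 and 0.0308), and both calls were lost with the block (adjusted p = 0.173 and 0.220). Of 7 partner genes outside the families 6 were tested. Slc51b, a subunit of the basolateral bile salt exporter, was higher in tumors (0.738 to 11.4 CPM against 0.0758 to 1.30 CPM in livers, edgeR adjusted p = 0.0256), while its partner subunit Slc51a had at most 0.0540 CPM. Pdzk1, a scaffold of carriers at the membrane, was 162 and 146 CPM in Ctnnb1-mutated and 27.7 to 71.2 CPM in other tumors (log2 difference 1.64 ± 0.26, edgeR adjusted p = 0.00385).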

How the data were processed

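The deposited files hold raw counts of reads per gene symbol for each library. Per the methods and the submitters' processing notes, the authors removed low-quality reads, aligned paired poly(A) reads to mm10 with Subread and counted them with featureCounts 1.6.4. Strandedness, annotation and the handling of reads with several alignments are not given in the sources used here, nor is the sequencing run of each library, so no run term was fitted.

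Counts of all symbols in 12 libraries were normalized by TMM and tested with edgeR 4.0.16 (R 4.3.3) after filterByExpr, by quasi-likelihood F tests with Benjamini-Hochberg adjustment over all genes and a threshold of 0.05. The comparison of tumors with livers used 2 groups, those of driver classes used 4 groups and those of genotypes used 4 groups, or 5 for tumors without a Ctnnb1 mutation. The SE was the log2 fold change divided by the square root of F, and intervals are at 95%. Values per mouse used log2(CPM + 1). Exon lengths came from GENCODE M21 and promoter windows came from RefSeq (GRCm38.p6). The fit was also tested on simulated data.

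Groups came from the labels and driver classes from the mutations listed by the study. The liver labelled 961 was taken for the mouse of T-HCC662 because the other 5 livers match the other 5 tumors. Tumor and liver of a mouse are paired because they are the same animal. Deviations from the group means correlated within mice with r from 0.0416 to 0.547 (across genes, which are not replicates), and blocked values are printed where they change the call of a named gene. The p-values of the main fits measure the spread among libraries within groups, with tumor and liver of a mouse taken as separate. Only the fits with the mouse as a block use the pairing. Between driver classes the blocked fits compare tumor minus own liver, whereas the main fits compare the tumors themselves. Both rest on these mice alone.

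The transporters and the other gene lists were chosen with earlier results of these data known. Genes named are the members called between tumors and livers or between Ctnnb1-mutated and other tumors, up to 12 called members with the smallest p in each other comparison, the listed bile salt, anion, cation and sterol transporters, and called bile acid synthesis genes. Slc22a28, Abcd3, Nr1h4, Nr1i2, Nr5a2, Slc51a, Slc51b and Pdzk1 fall outside this rule and were chosen after their values were seen. Near-identical means at least 95% identity over 150 bases or more, which held for 15 members. Alternatives were DESeq2 1.42.0, its size factors, no count filter, fits of the compared groups alone, the mouse as a block and leaving out each library. Of 5 T cell markers 4 were in the files, with sums of 0.679 to 7.84 CPM in livers and 1.76 to 23 CPM in tumors, and the 5 cholangiocyte markers summed to 50.9 to 134 CPM in livers and 17.8 to 1064 CPM in tumors. Tumors of this study outside these 6 were not analysed here. Values of 1 gene that the counts include are not reported here.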

Additional observations from a re-analysis of the deposited data

Results flagged for a closer look

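Of 135 sets of values from groups of 4 to 6 libraries, 12 had a sample far from the others by Dixon's criterion. Chance alone meets it in about 1 of 20 groups of independent, normally distributed values. The sets here were CPM from groups that share libraries, so that rate need not hold for them. TCi-HCC981 stood apart most often. Among the 4 tumors without a Ctnnb1 mutation it had the highest Abca8a (109 CPM, others 58.5 to 65.3) and Abcc4 (120 CPM, others 13.4 to 29.2) and the lowest Slco1a4 (0.308 CPM, others 7.99 to 8.75). Among all 6 tumors it had the highest Abcc2 (656 CPM, others 259 to 394). Its Abcg1 (62.6 CPM) stood apart both from the other 5 tumors (10.4 to 21.6) and from the other 3 without a Ctnnb1 mutation (11.1 to 14.7), and its liver had the highest Abcg1 of the 6 livers (37 CPM, others 3.49 to 9.45).

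T-HCC941 had the highest Abcb1a of the 4 tumors without a Ctnnb1 mutation (53.4 CPM, others 12.6 to 18.4). Its Slc22a7 (63.3 CPM) stood apart from the other 5 tumors (1.40 to 19.4) and from the other 3 of its class (14.7 to 19.4). T-HCC662 had the highest Abcb4 of the 6 tumors (317 CPM, others 99 to 161). The liver of T-HCC663 had the lowest Abcd4 of the 6 livers (16.6 CPM, others 20.2 to 22.3).

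For 8 of 35 genes checked, each for the driver class and for the genotype (70 checks), tumor minus own liver had 1 sign in both mice with Ctnnb1-mutated tumors and the opposite sign in the other 4 mice. On the log2(CPM + 1) scale the mean of the first class minus that of the second was 6.04 for Slc22a3, 3.7 for Slco1b2, 1.3 for Abcb6 and 1.18 for Slc22a5. It was -3.02 for Abca8a, -2.35 for Slco2a1, -2.1 for Abcg5 and -1.04 for Abca1. These differences were not tested on this scale. The 35 genes were members called in the comparisons above or listed by role, so the count is no separate evidence for a difference between classes. The share of all genes with such a split of signs was not computed.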

How the results depend on the processing

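Over the alternatives run, 1025 values of called genes stayed called in the same direction, 176 lost the call and 0 reversed. Each call had 12 fits that left out 1 library, beside 5 or 6 other settings. These fits share most of their data, so the values are not independent. Genes that were not called could change sign: between tumors and livers the block moved Slc22a3 from 1.65 to -1.34, Abcc9 from 0.50 to -0.01, Slco2a1 from 0.28 to -0.12 and Abcb4 from 0.03 to -0.02 (log2 fold change). Between tumors and livers 11 transporters were called, 7 to 12 when 1 library was left out, with 7 without the liver of T-HCC662, without the liver of T-HCA992 or without T-HCC941. The count was 5 without the 2 tumors named as adenomas (HCA) and their livers, although the study's histology also lists T-HCC663 as an adenoma. It was 14 with the replicate block (the mouse) and 17 with that block in the 5 mice whose labels match. Between driver classes 19 were called, 6 to 19 with 1 library left out, 12 with only the libraries compared and 8 with the replicate block. For Ctnnb1-mutated tumors against livers 7 became 12 in DESeq2, 9 with the block and 4 to 10 with 1 library left out, the lowest without T-HCC662. For other tumors against livers 26 became 33 with the block and 19 to 27 with 1 library left out.

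For Egfr- or Hras-mutated against driver-negative tumors 0 became 3 in DESeq2, and 0 to 1 with 1 library left out (Slco2b1, without T-HCC941). In p21+/Tert mice 7 became 11 in DESeq2, 10 with the block and 2 to 9 with 1 library left out, with 2 without the liver of T-HCC662 and 3 without that of T-HCC663. In p21+/TertCi mice, and between the livers of the genotypes, 0 became 1 in DESeq2 and stayed 0 with 1 library left out. The block left the p21+/TertCi count and the genotype interaction at 0. DESeq2's size factors and no count filter gave counts within 1.5 times of the main ones. A class left with 1 library is assumed to vary like the others. The 2 Ctnnb1-mutated tumors are both p21+/Tert, so mutation and genotype overlap in part. The other tumors include T-HCC941 and T-HCA992 of the same genotype, but no p21+/TertCi tumor here carried the mutation. The comparison of driver classes was not adjusted for genotype.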
